A study of Mus musculus with 9 samples.

Results

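The genes described here are 10 genes of antigen presentation by the major histocompatibility complex (MHC). They are the class I heavy chains H2-K1 and H2-D1 with their light chain B2m, the peptide transporter subunits Tap1 and Tap2, the class II chains H2-Aa, H2-Ab1 and H2-Eb1, the class II invariant chain Cd74 and the class II coactivator Ciita. All 10 were found by gene identifier among the 37816 genes of the count table, and all 10 had enough counts to be among the 19353 genes tested. They were measured by strand-specific RNA sequencing in the cerebellum of 9 mice on the C57BL/6 background, 3 in each of the groups 15Q, 84Q and 84Q+IGF-1. All mice were harvested at 18 months of age and were transgenic for human ATXN3, the gene of spinocerebellar ataxia type 3 (SCA3), on a yeast artificial chromosome that keeps its own regulatory sequence. Its CAG tract holds 15 repeats in 15Q mice, which served as the control, and 84 repeats, an expanded length, in 84Q mice. Per the study's methods, the 15Q mice were donated by a research laboratory and the 84Q mice came from The Jackson Laboratory. Repeat length and the source of the mice therefore cannot be told apart in comparisons with 15Q. Mice of the 84Q+IGF-1 group carried the 84-repeat transgene and were given insulin-like growth factor 1 (IGF-1) at 50 mg/kg once a week by injection into the abdomen from month 9 of age to month 18. The treatment protocol names PBS (0.01 M) as the other injection, whereas the labels of the 15Q and 84Q libraries call them untreated. No group without the transgene was among the libraries, and the human transcript was not analysed here.

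MHC class I molecules, made of a heavy chain and beta-2 microglobulin (B2m), show peptides from inside the cell to CD8 T cells. The peptides are carried into the endoplasmic reticulum by the Tap1 and Tap2 transporter, and nearly all cells can make class I molecules, neurons at low levels. MHC class II molecules show peptides from engulfed material to CD4 T cells and pair an alpha chain (H2-Aa) with a beta chain (H2-Ab1), held by the invariant chain Cd74 until a peptide is loaded. They are made mainly by dendritic cells, B cells and macrophages, including the macrophages of the brain's borders (meninges, perivascular space and choroid plexus), and are low in resting microglia, the macrophages of the brain tissue itself. Ciita is the coactivator without which class II genes are hardly transcribed. C57BL/6 mice do not make the alpha chain partner of H2-Eb1, because their H2-Ea gene is inactivated.

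Positions refer to GRCm38. All but 3 of the genes lie in the MHC on chromosome 17: H2-K1 at chr17:33996017-34000347 on the minus strand, Tap1 at chr17:34187553-34197225, Tap2 at chr17:34203527-34216321, H2-Ab1 at chr17:34257689-34269419, H2-Aa at chr17:34282744-34287823 on the minus strand, H2-Eb1 at chr17:34305867-34316674 and H2-D1 at chr17:35262730-35267499. B2m lies at chr2:122147686-122153083 and Ciita at chr16:10480059-10528418, and Cd74 also lies outside the MHC. In what follows, counts are read counts over the exons of a gene, CPM are counts per 1000000 of the library's total as scaled by the TMM method, and TPM are transcripts per 1000000, which also take exon length into account.

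Promoter sequences are shown for a pair of class II chains and a pair of class I genes, so that the upstream sequences of both classes can be compared. RefSeq entries (GRCm38.p6) were matched for 6 of the 10 genes: H2-K1, H2-D1, B2m, Tap1, H2-Aa and H2-Eb1. The windows of H2-D1 and Tap1 lie within annotated exons and are not printed. The stretches printed hold no annotated exon, run from 5′ to 3′ on the strand of the gene and end at its start, that of B2m 1 base before it. The H2-K1 stretch is chr17:34000348-34000597 (minus strand, the upstream one of 2 starts), the B2m stretch chr2:122147437-122147685 (plus strand), the H2-Aa stretch chr17:34287824-34288073 (minus strand) and the H2-Eb1 stretch chr17:34305721-34305866 (plus strand). Capitals mark CCAAT or its reverse complement ATTGG, the longer CTGATTGG or CCAATCAG that contains it, and GGGGATTCC, whose reverse complement is GGAATCCCC.
H2-Aa: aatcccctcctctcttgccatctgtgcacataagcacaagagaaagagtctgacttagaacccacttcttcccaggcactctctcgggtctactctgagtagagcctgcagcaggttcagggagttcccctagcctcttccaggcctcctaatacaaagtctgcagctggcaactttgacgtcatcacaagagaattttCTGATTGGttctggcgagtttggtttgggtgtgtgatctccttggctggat
H2-Eb1: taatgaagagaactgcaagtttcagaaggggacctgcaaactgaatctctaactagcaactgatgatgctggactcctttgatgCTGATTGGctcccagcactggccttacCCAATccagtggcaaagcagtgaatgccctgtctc
H2-K1: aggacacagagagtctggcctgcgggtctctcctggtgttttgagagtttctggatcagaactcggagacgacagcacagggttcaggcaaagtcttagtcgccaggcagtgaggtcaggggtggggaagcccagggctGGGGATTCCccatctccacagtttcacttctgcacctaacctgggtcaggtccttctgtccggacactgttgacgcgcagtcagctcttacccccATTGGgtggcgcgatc
B2m: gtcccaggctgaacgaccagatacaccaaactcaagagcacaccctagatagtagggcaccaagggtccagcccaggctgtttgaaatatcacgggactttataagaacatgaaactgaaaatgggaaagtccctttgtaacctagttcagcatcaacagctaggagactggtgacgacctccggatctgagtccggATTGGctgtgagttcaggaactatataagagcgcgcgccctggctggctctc
CTGATTGG, the Y box sequence known from class II promoters, began 51 bases before the start of H2-Aa and 62 before that of H2-Eb1, and it or its reverse complement was in 3.83% of 32851 RefSeq promoter windows of 250 bases. It was also in the windows of H2-D1 (53 bases before the start) and Tap1 (222 bases). The windows of H2-K1 and B2m did not hold it, but held CCAAT or ATTGG, which was in 33.8% of all windows. GGGGATTCC, part of the NF-kappaB-type sequence known from class I promoters, began 111 bases before the start of H2-K1 and 171 bases before that of H2-D1, and was in 70 of all windows (0.213%). TGACG or CGTCA was in 17.8% of windows and in those of H2-Aa, H2-K1, H2-D1, B2m and Tap1. TTTCACTT or AAGTGAAA was in 1.36% of windows and in those of H2-K1 and H2-D1.

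Library totals on genes ran from 17482654 to 58269196 counts, highest in 15Q replicate 3, so that 3 counts, taken as the floor of detection, corresponded to 0.0513 to 0.171 CPM. The lowest count of any of the 10 genes was 13, for H2-Aa in 84Q+IGF-1 replicate 1. The defining markers of the labelled tissue were high in every library, those of Purkinje cells (Itpr1 and Car8 highest) with 6900 to 7774 CPM in sum and those of granule cells (Cbln3 and Zic1 highest) with 4727 to 5484 CPM. Those of astrocytes (Slc1a3 and Aqp4 highest) summed to 2072 to 2637 CPM and those of oligodendrocytes (Mbp highest) to 2808 to 4710 CPM. Several libraries stood apart. Choroid plexus genes stood out in 3 libraries, with Ttr at 354 CPM in 15Q replicate 1, 340 CPM in 15Q replicate 3 and 832 CPM in 84Q replicate 2, against at most 19.8 CPM elsewhere. In 15Q replicate 3, immunoglobulin heavy chain Ighm stood at 65.1 CPM against 4.03 to 5.62 CPM in the other 8 libraries. Blood genes (Hba-a1 and Hba-a2 highest) were highest in 15Q replicate 2 (211 CPM in sum, against 22.9 to 80.9). Xist was high in 4 libraries (15Q replicates 2 and 3, replicate 1 of 84Q, replicate 2 of 84Q+IGF-1) and the Y-linked genes Ddx3y and Eif2s3y in the other 5, so the groups were not alike in sex. Genes of intestine (Lgals4 and Muc13 highest) summed to 23.4 to 37.0 CPM in 15Q and 4.28 to 6.11 elsewhere, those of epidermis (Krt10 and Dsp highest) to 21.2 to 36.4 and 7.37 to 9.76, and those of skeletal muscle (Acta1 and Myh4 highest) to 12.01 to 18.7 and 1.01 to 2.48. In both comparisons with 15Q, Vil1, Muc13, Fabp1, Cdh17, Lgals4, Krt14, Krt5, Krt10, Dsp, Myh4, Myh1, Ckm, Acta1, Mylpf and Tnnt3 of these lists were called lower, and Lor in 84Q+IGF-1, so that what they mark and the genotype cannot be told apart.

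Compared per length, over all 9 libraries, class I transcripts were the most abundant of the 10 genes. B2m had the highest level with a mean of 456 TPM (382 to 543), followed by H2-D1 with 251 TPM (229 to 274), H2-K1 with 56.4 TPM (48.9 to 67.6) and Tap2 with 16.4 TPM (13.9 to 18.6). The ranges of these 4 genes did not overlap. From Tap2 down, each gene's range overlapped that of the next: Cd74 had 11.8 TPM (5.06 to 29.2), Tap1 4.08 TPM, H2-Ab1 3.82 TPM, H2-Eb1 3.69 TPM, H2-Aa 1.70 TPM and Ciita 1.36 TPM. The levels of class I heavy chains are uncertain between loci, because 22.8% of the 31-base words of H2-K1 transcripts and 26.7% of those of H2-D1 also occurred in transcripts of other genes, mostly each other and the H2-Q genes. For the other 8 genes that share was at most 1.41%. Tap1, Tap2 and Ciita overlap exons of genes on the opposite strand by 212, 698 and 329 bases, and the strand setting of the counting was not given in the sources used here.

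**Figure D1:**
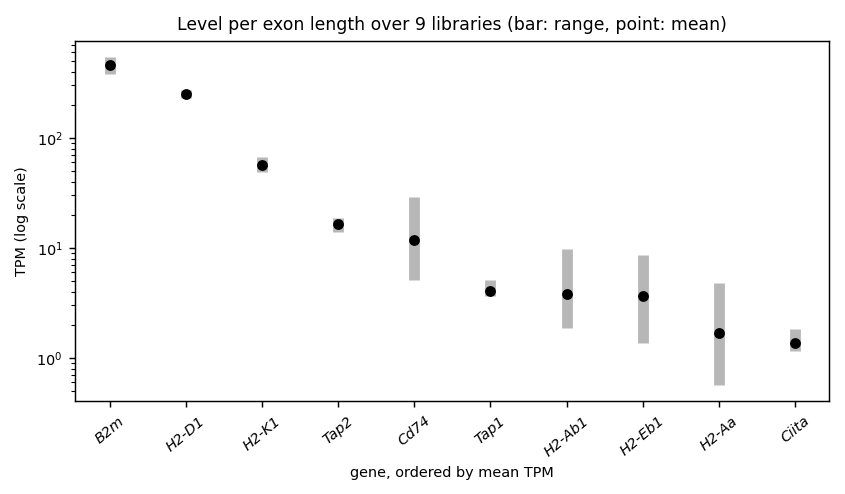
Level of each gene in transcripts per 1000000 (TPM, logarithmic axis), with the mean over 9 libraries as a point and the range as a bar. B2m, H2-D1, H2-K1 and Tap2 stand apart from each other, and the ranges of the genes from Tap2 to Ciita overlap with their neighbours.

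Across the groups, the genes that passed the test were class II genes, and each was lower in 84-repeat mice than in 15Q mice. H2-Ab1 was 2.27-fold lower in 84Q than in 15Q. In 84Q+IGF-1, H2-Aa was 3.90-fold lower, Cd74 2.87-fold lower and H2-Ab1 2.39-fold lower than in 15Q. Each of these calls was lost when some 1 of the libraries was left out: without 15Q replicate 3 only Cd74 in 84Q+IGF-1 was still called, and that call was lost with replicate 1 of 84Q+IGF-1 left out. Summed markers of 5 of the lists of other cell types and tissues were also lower in every 84Q and 84Q+IGF-1 library than in 15Q. They were those of intestine, epidermis and skeletal muscle given above, those of border macrophages at 6.04 to 11.5 CPM against 11.7 to 21.9 CPM, and those of meningeal fibroblasts at 76.4 to 114 CPM against 127 to 175 CPM. Their part in the class II values was not tested. No gene of the 10 was called between 84Q+IGF-1 and 84Q with edgeR after the filter on low counts, or with DESeq2, and edgeR without that filter called H2-Aa and Cd74. The class II counts were few, and 15Q replicate 3 had the highest value of each of the 4 class II genes. In such bulk samples, fewer cells of a type and less RNA per cell cannot be told apart.

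**Figure D2:**
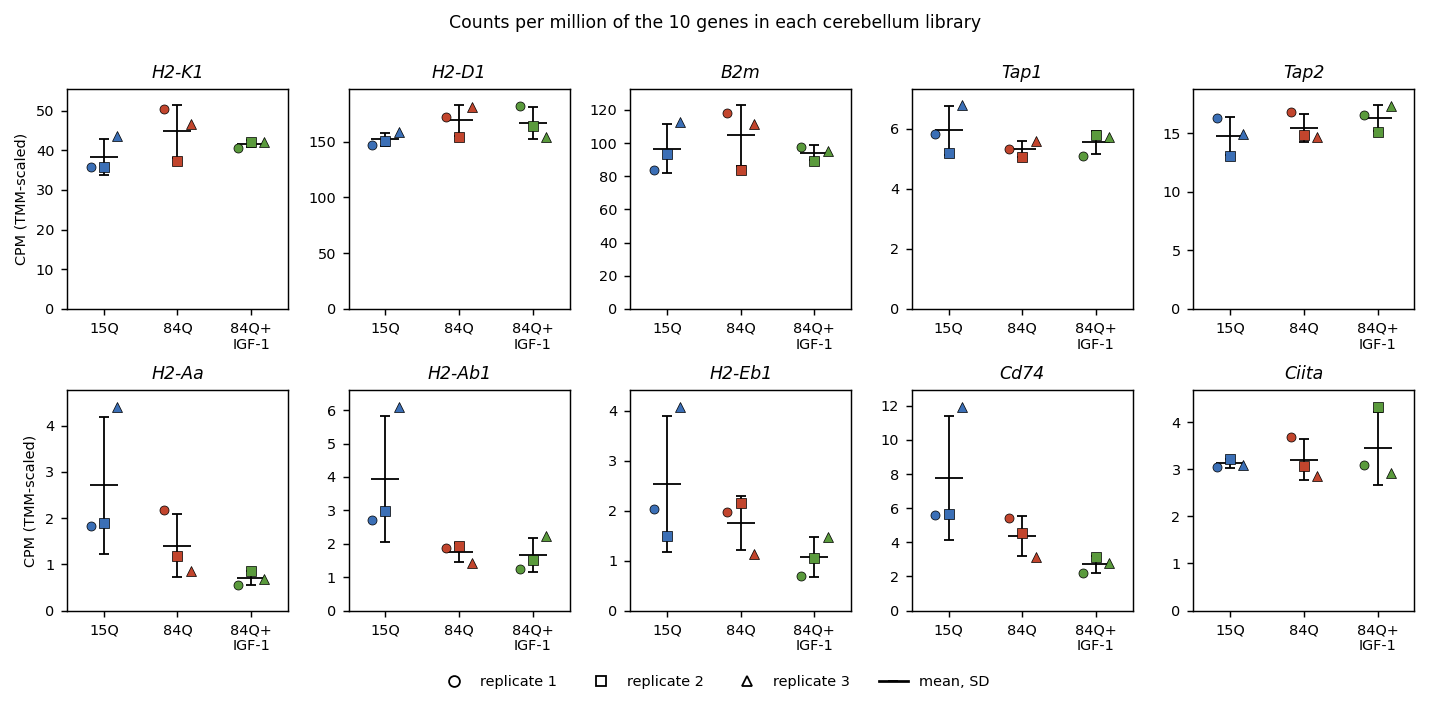
CPM of the 10 genes in each library, 3 mice per group, with replicate numbers as symbols and the mean and SD in black; each axis starts at 0. The 15Q replicate 3 triangle is the highest point of H2-Aa, H2-Ab1, H2-Eb1 and Cd74, and the groups of H2-K1, H2-D1, B2m, Tap1, Tap2 and Ciita overlap.

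The class I heavy chains and B2m were not called in any comparison. H2-K1, a classical class I heavy chain, had 35.8, 35.7 and 43.6 CPM in the 15Q libraries, 50.4, 37.3 and 46.5 CPM in 84Q, and 40.6, 42.1 and 42.1 CPM in 84Q+IGF-1. H2-D1, the other classical heavy chain, had 147, 150 and 159 CPM in 15Q, 172, 154 and 181 CPM in 84Q, and 182, 164 and 154 CPM in 84Q+IGF-1. The lowest 84Q and 84Q+IGF-1 libraries of both genes lay within the range of 15Q, so the groups overlapped. B2m, the light chain, had 83.9, 93.5 and 113 CPM in 15Q, 118, 83.8 and 112 CPM in 84Q, and 97.8, 89.2 and 95.4 CPM in 84Q+IGF-1, and 84Q replicate 2 was just below the lowest 15Q library. In 84Q against 15Q the log2 fold change was 0.22 for H2-K1 (standard error 0.11, adjusted p = 0.295), 0.15 for H2-D1 (0.07, adjusted p = 0.289) and 0.11 for B2m (0.12, adjusted p = 0.667), all from the quasi-likelihood test of edgeR, adjusted over all tested genes by the Benjamini-Hochberg method, as are the adjusted p-values of single genes in the rest of the text unless another test is named. In 84Q+IGF-1 against 15Q the log2 fold changes were 0.11, 0.13 and −0.04, and against 84Q they were −0.11, −0.02 and −0.15, none of them called.

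The transporter subunits also overlapped between the groups. Tap1 had 5.84, 5.19 and 6.79 CPM in 15Q, 5.31, 5.05 and 5.59 CPM in 84Q, and 5.10, 5.80 and 5.72 CPM in 84Q+IGF-1. Tap2 had 16.4, 13.1 and 14.9 CPM in 15Q, 16.9, 14.9 and 14.6 CPM in 84Q, and 16.6, 15.1 and 17.3 CPM in 84Q+IGF-1. No group of libraries was set off from another for either subunit. Their log2 fold changes lay between −0.16 (Tap1, 84Q against 15Q, standard error 0.13, adjusted p = 0.543) and 0.15 (Tap2, 84Q+IGF-1 against 15Q, standard error 0.10, adjusted p = 0.490), with edgeR.

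The class II chains, below the class I heavy chains in TPM, differed more between mice. H2-Ab1, the beta chain, had 2.71, 2.98 and 6.11 CPM in 15Q, 1.86, 1.93 and 1.43 CPM in 84Q, and 1.24, 1.51 and 2.23 CPM in 84Q+IGF-1. H2-Aa, the alpha chain, had 1.82, 1.89 and 4.41 CPM in 15Q, 2.17, 1.19 and 0.855 CPM in 84Q, and 0.558, 0.866 and 0.685 CPM in 84Q+IGF-1. For H2-Ab1 every 15Q library was above every other library, and for H2-Aa every 84Q+IGF-1 library was below every 15Q library, while 84Q replicate 1 lay above 2 of the 15Q libraries. H2-Eb1, the second beta chain, had 2.04, 1.49 and 4.09 CPM in 15Q, 1.97, 2.15 and 1.14 CPM in 84Q, and 0.686, 1.05 and 1.47 CPM in 84Q+IGF-1, so that 84Q overlapped 15Q and 84Q+IGF-1 lay just below it. Cd74, the invariant chain, had 5.61, 5.69 and 11.95 CPM in 15Q, 5.45, 4.53 and 3.14 CPM in 84Q, and 2.19, 3.16 and 2.81 CPM in 84Q+IGF-1. All 84Q and 84Q+IGF-1 libraries of Cd74 were below all 15Q libraries, 84Q replicate 1 by a small margin. In contrast, Ciita, the coactivator of these genes, had 3.05, 3.23 and 3.10 CPM in 15Q, 3.69, 3.08 and 2.85 CPM in 84Q, and 3.09, 4.33 and 2.91 CPM in 84Q+IGF-1, and the groups overlapped.

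In 84Q against 15Q, 1 of the 10 genes was called, that is, had a fold change of at least 1.5 with an adjusted p under 0.1, where 2.14% of all tested genes were called and 1.9% were called lower. It was H2-Ab1, at −1.18 on the log2 scale (standard error 0.32, adjusted p = 0.0859). None was called with the replicate number as a block, with Xist as a covariate or with Ttr as a covariate. The values of the other class II genes were −0.93 for H2-Aa (standard error 0.39, adjusted p = 0.219), −0.82 for Cd74 (0.29, adjusted p = 0.162) and −0.54 for H2-Eb1 (0.38, adjusted p = 0.471), and that of Ciita was 0.05 (0.18, adjusted p = 0.920). The DESeq2 Wald test called 2, H2-Ab1 and Cd74 (adjusted p = 0.0915), and edgeR with no filter on low counts called 3, H2-Ab1, Cd74 and H2-Aa (adjusted p = 0.000113 and 0.00850 for the last 2). Over all genes those fits called 521 and 1025, against 414 by edgeR with the filter. Without the filter the standard errors were smaller, at 0.23, 0.17 and 0.25 for H2-Ab1, Cd74 and H2-Aa. At an unadjusted p under 0.05 stood 3 of the 10 genes, against 19.4% of all tested genes. The groups did not overlap in CPM for 2 of the 10, H2-Ab1 and Cd74, both lower, against 25.4% of all tested genes and 13.5% that were lower. The median log2 fold change was −0.88 over the 4 class II genes and 0.15 over the 3 class I genes, against −0.0019 over all tested genes.

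In 84Q+IGF-1 against 15Q, which uses the same 15Q libraries, 3 of the 10 genes were called, all lower, where 2.25% of all tested genes were called and 2.06% were called lower. They were H2-Aa at −1.96 on the log2 scale (standard error 0.42, adjusted p = 0.0390), Cd74 with −1.52 (0.30, adjusted p = 0.0270) and H2-Ab1 with −1.25 (0.32, adjusted p = 0.0747). With the replicate number as a block only Cd74 was called, with Xist as a covariate H2-Aa and Cd74, and with Ttr as a covariate none. H2-Eb1 had an equal change of −1.25 with a larger standard error of 0.39 (adjusted p = 0.141 with edgeR) and was not called. It was called by the DESeq2 Wald test (−1.24, adjusted p = 0.0667) and by edgeR with no filter on low counts (standard error 0.26, adjusted p = 7.07e-05). Over all genes those fits called 588 and 1284, against 435 by edgeR with the filter. Ciita had 0.14 (0.18, adjusted p = 0.719). At an unadjusted p under 0.05 stood 4 of the 10, the class II genes, against 17.7% of all tested genes. The ranges of 84Q+IGF-1 lay below those of 15Q for the 4 class II genes, where 24.7% of all tested genes did not overlap and 13% were lower, and the ranges overlapped for the other 6. The median log2 fold change was −1.39 over the class II genes and 0.11 over the class I genes, against −0.0051 over all tested genes.

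Between 84Q+IGF-1 and 84Q, 0 of the 10 genes and 0 of all 19353 genes (0%) were called with edgeR, and the DESeq2 Wald test called 0 of the 10 and 6 of all. With no filter on low counts, edgeR called 2 of the 10, H2-Aa (adjusted p = 0.0760) and Cd74 (adjusted p = 0.0348), and 168 of all genes. At an unadjusted p under 0.05 stood 2 of the 10, against 4.68% of all tested genes. They were H2-Aa at −1.03 on the log2 scale (standard error 0.45, unadjusted p = 0.0425 and adjusted p = 0.969 from edgeR) and Cd74 with −0.70 (0.32, unadjusted p = 0.0489 and adjusted p = 0.969). H2-Eb1 had −0.71 (0.42, adjusted p = 0.969), H2-Ab1 −0.07 (0.35, adjusted p = 0.994) and Ciita 0.09 (0.18, adjusted p = 0.991). The ranges of the groups overlapped for all 10 genes, where 8.46% of all tested genes did not overlap.

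**Figure D3:**
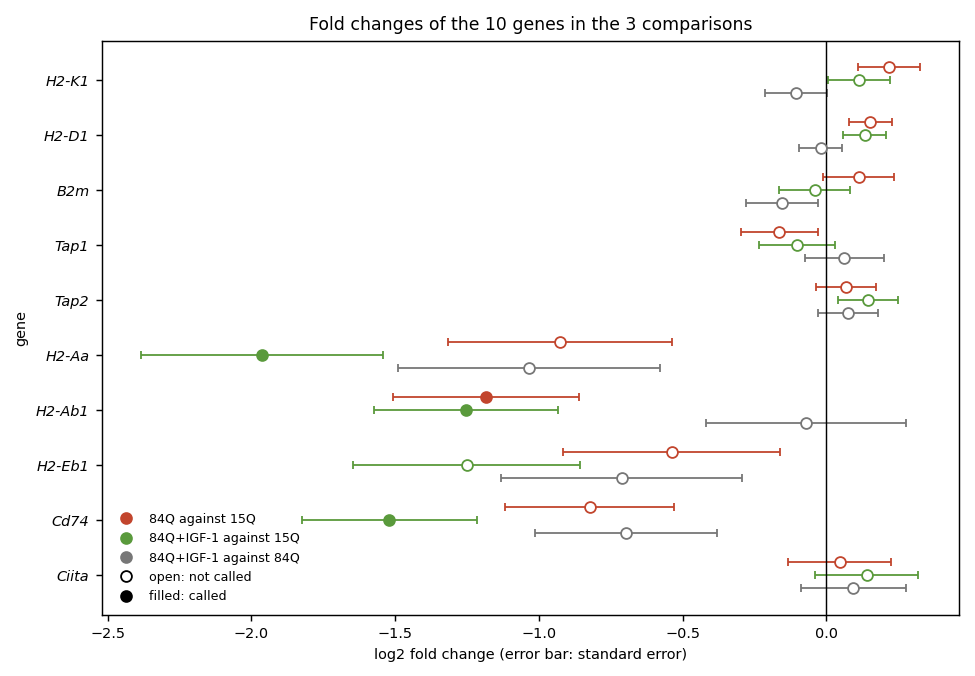
Log2 fold change and standard error of the 10 genes in the 3 comparisons; filled points were called (adjusted p under 0.1 and at least 1.5-fold). Filled points are H2-Ab1 in both comparisons with 15Q, and H2-Aa and Cd74 in 84Q+IGF-1 against 15Q, at −1.18 to −1.96; the points of the class I genes, the transporter and Ciita lie between −0.16 and 0.22.

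Calls were lost when single libraries were left out. In the comparisons with 15Q, the fold changes of H2-Aa, H2-Ab1 and Cd74 moved most without 15Q replicate 3. Without 15Q replicate 3, none of the 10 genes was called in 84Q against 15Q and only Cd74 was in 84Q+IGF-1 against 15Q (log2 fold change −1.04, adjusted p = 0.0675 with edgeR). The log2 fold change without that library was −0.69 for H2-Ab1, −0.35 for H2-Aa, −0.35 for Cd74 and 0.03 for H2-Eb1 in 84Q against 15Q, and −0.76, −1.38, −1.04 and −0.69 in 84Q+IGF-1 against 15Q. H2-Ab1 was no longer called in 84Q against 15Q without 15Q replicate 2, any 1 of the 84Q libraries, or 84Q+IGF-1 replicate 2, with log2 fold changes of −1.35, −1.23, −1.26, −1.07 and −1.18 there against −1.18 with all libraries. Its adjusted p over the 9 libraries left out in turn ranged from 0.0480 to 0.315 with edgeR, and its log2 fold change from −1.37 to −0.69. In 84Q+IGF-1 against 15Q, no gene was called without 84Q+IGF-1 replicate 1, where the log2 fold change was −1.83 for H2-Aa (adjusted p = 0.139), −1.39 for Cd74 (adjusted p = 0.107) and −1.09 for H2-Ab1 (adjusted p = 0.229), with edgeR. H2-Ab1 was also not called there without 15Q replicate 2 (−1.42, adjusted p = 0.101 with edgeR) or 84Q+IGF-1 replicate 2 (−1.18, adjusted p = 0.156). Over the 9 libraries left out in turn, the log2 fold change in that comparison ranged from −2.17 to −1.38 for H2-Aa, from −1.70 to −1.04 for Cd74 and from −1.53 to −0.76 for H2-Ab1. Without the 3 libraries high in choroid plexus genes, which leaves 1 library of 15Q that is assumed to vary like the other groups, none was called in either comparison, with −0.83 for H2-Ab1 in 84Q and −1.05 for Cd74 in 84Q+IGF-1. With log2 CPM of Ttr as a covariate none was called either, with −1.02 for H2-Ab1 in 84Q (adjusted p = 0.147) and, in 84Q+IGF-1, −1.24 for Cd74 (adjusted p = 0.188), −1.72 for H2-Aa (adjusted p = 0.230) and −0.91 for H2-Ab1 (adjusted p = 0.386), from edgeR.

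**Figure D4:**
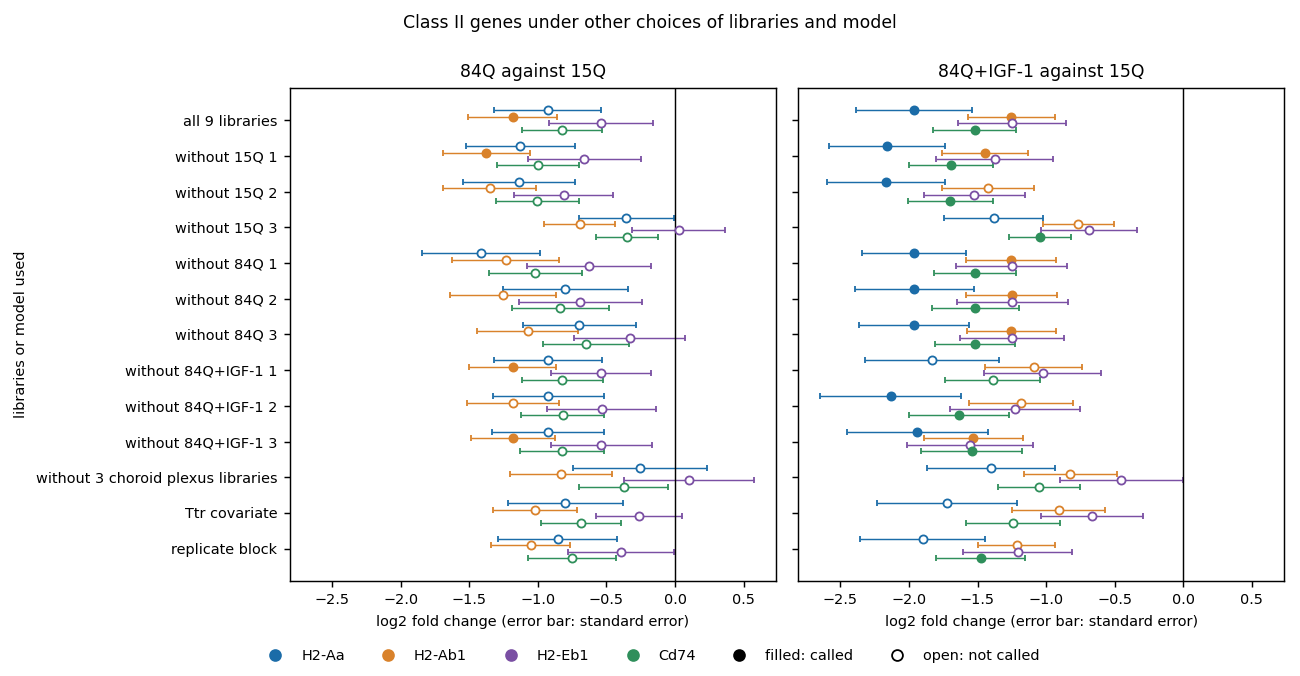
Log2 fold change and standard error of H2-Aa, H2-Ab1, H2-Eb1 and Cd74 in the comparisons with 15Q, with all 9 libraries, without each library in turn, without the 3 libraries high in choroid plexus genes, with Ttr as a covariate and with the replicate number as a block; filled points were called. All points lie below 0 but those of H2-Eb1 in 84Q against 15Q without 15Q replicate 3 (0.03) and without the 3 choroid plexus libraries (0.10).

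The summed level of H2-Aa, H2-Ab1, H2-Eb1 and Cd74 was 12.2, 12.04 and 26.6 CPM in 15Q, 11.5, 9.80 and 6.56 CPM in 84Q, and 4.68, 6.59 and 7.20 CPM in 84Q+IGF-1. The libraries 15Q replicates 1 and 2 were thus close to 84Q replicate 1, and the 3 groups were ordered by their means (16.9, 9.27 and 6.15 CPM). Among the libraries high in Xist, the sum was 12.04 and 26.6 CPM in 15Q, 11.5 CPM in 84Q and 6.59 CPM in 84Q+IGF-1, and among the others 12.2 CPM in 15Q, 9.80 and 6.56 CPM in 84Q, and 4.68 and 7.20 CPM in 84Q+IGF-1. With Xist as a covariate, H2-Aa (log2 fold change −1.61, adjusted p = 0.0525) and Cd74 (−1.29, adjusted p = 0.0473) were called with edgeR between 84Q+IGF-1 and 15Q, and none between 84Q and 15Q. H2-Ab1 was not called with that covariate, at −1.07 in 84Q (adjusted p = 0.179 with edgeR) and −1.12 in 84Q+IGF-1 (adjusted p = 0.173). The summed counts of the 3 chains per count of Cd74 stood between 1.08 and 1.22 in 8 libraries and at 1.56 in 84Q+IGF-1 replicate 3. H2-Aa per H2-Ab1 was 0.671, 0.633 and 0.723 in 15Q, 1.17, 0.614 and 0.600 in 84Q, and 0.448, 0.575 and 0.308 in 84Q+IGF-1. The 84Q+IGF-1 ratios were below those of every other library, but by little and at few counts. The ratio of 0.575 came from 23 and 40 counts, and that of 0.600 in 84Q replicate 3 from 15 and 25. The ratio of H2-D1 to H2-K1 counts, between 3.41 and 4.49, overlapped between the groups.

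Markers of the cell types that can carry class II molecules did not all go the same way, and their part in the class II differences was not tested. The sum of 6 border macrophage genes (Mrc1 and F13a1 highest) was 11.7, 14.9 and 21.9 CPM in 15Q, 11.5, 9.63 and 6.04 CPM in 84Q, and 7.64, 8.28 and 7.71 CPM in 84Q+IGF-1, with 15Q replicate 3 again highest. The median log2 fold change of its 5 tested genes against 15Q was −0.74 in 84Q and −1.10 in 84Q+IGF-1, and 1 of them, the scavenger receptor gene Cd163, was called, in 84Q+IGF-1 (−1.18, standard error 0.28, adjusted p = 0.0590 with edgeR), where 2.14% and 2.25% of all tested genes were called. At an unadjusted p under 0.05 stood 4 of the 5 in each comparison, against 19.4% and 17.7% of all tested genes. DESeq2 called F13a1 in 84Q, and Mrc1, Cd163 and F13a1 in 84Q+IGF-1. The class II sum per border macrophage sum was 1.04, 0.808 and 1.21 in 15Q, 0.997, 1.02 and 1.08 in 84Q, and 0.612, 0.795 and 0.933 in 84Q+IGF-1, so that each of the other groups overlapped 15Q in this ratio. The sum of 12 microglial genes (Csf1r highest) was 205 to 252 CPM in 15Q, 250 to 305 CPM in 84Q and 221 to 235 CPM in 84Q+IGF-1, and none of the 12 was called with edgeR or DESeq2. At an unadjusted p under 0.05 stood 5 of them in 84Q (19.4% of all tested genes) and 0 in 84Q+IGF-1 (17.7% of all) against 15Q. In 84Q, 2 of the 12 passed the adjusted p, both higher, as did 928 of all 19353 genes, 299 of them higher, and the receptor gene Csf1r was higher by 0.37 on the log2 scale (standard error 0.07, adjusted p = 0.0271 with edgeR), short of the fold threshold. The class II sum per microglial sum was 0.0551 to 0.105 in 15Q, 0.0262 to 0.0376 in 84Q and 0.0199 to 0.0325 in 84Q+IGF-1, every 15Q library lying above the others.

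Of 6 genes of B and plasma cells (Ighm and Jchain highest), the sum was 4.55 to 6.73 CPM in 8 libraries and 67.9 CPM in 15Q replicate 3, nearly all of it Ighm. The defining B cell genes Ms4a1, Cd79a and Cd79b were too low to be tested, at 10, 92 and 20 counts in all libraries together. Of 7 dendritic cell genes, Zbtb46 and Flt3 were highest and the sum stood at 135 to 161 CPM in all groups. Cd209a, Xcr1, Clec9a and Ccr7 were too low to be tested, so the sum says little about them. Of the 3 tested genes, 1 was lower against 15Q in each comparison, at −0.49 on the log2 scale in 84Q and −0.28 in 84Q+IGF-1. T and NK cell genes (Cd4 and Cd8a highest) summed to 0.520 to 1.62 CPM. Genes of meningeal fibroblasts (Col1a2 and Pdgfra highest) summed to 127 to 175 CPM in 15Q, 79.3 to 114 CPM in 84Q and 76.4 to 96.4 CPM in 84Q+IGF-1. Of these 7 genes, Lum and Col1a1 were called lower in 84Q, and Dcn, Lum, Col1a1 and Col1a2 in 84Q+IGF-1, against 15Q, where 1.9% and 2.06% of all tested genes were called lower. DESeq2 also called Dcn and Slc6a13 in 84Q and Slc6a13 in 84Q+IGF-1. Choroid plexus genes (Ttr and Clic6 highest) summed to 484, 39.3 and 463 CPM in 15Q, 40.6, 1010 and 25.9 CPM in 84Q, and 26.7, 27.3 and 64.1 CPM in 84Q+IGF-1. Endothelial genes (Flt1 and Slco1a4 highest) stood at 261 to 292 CPM.

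**Figure D5:**
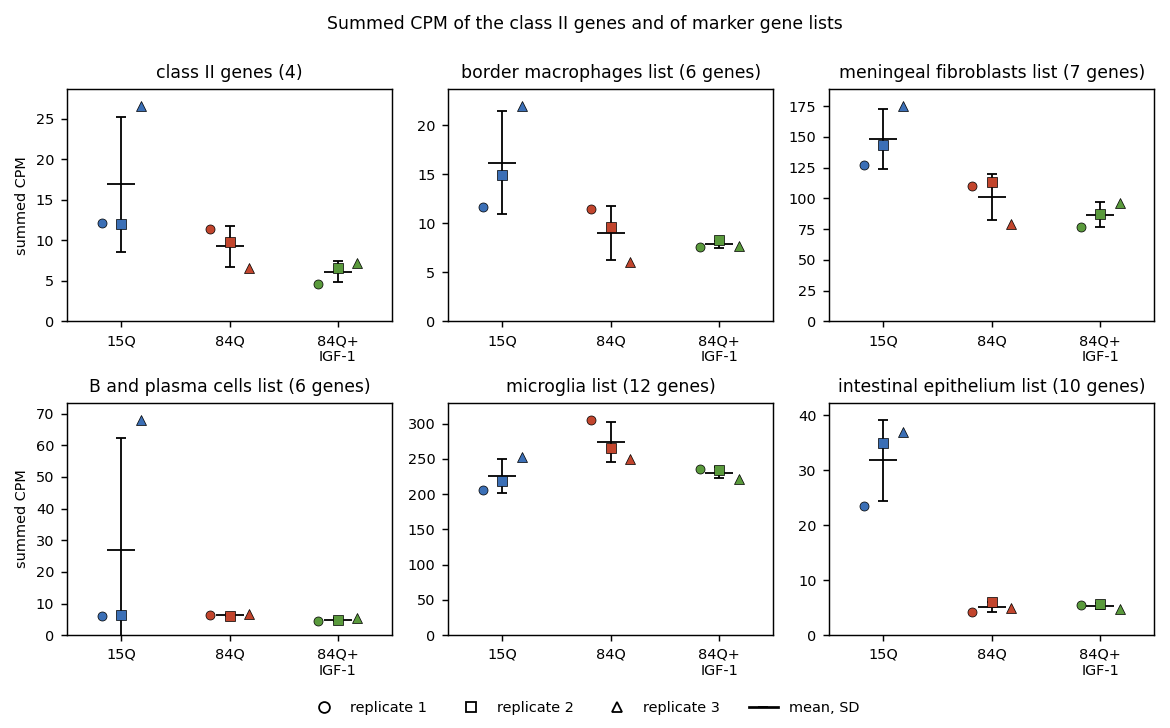
Summed CPM of the 4 class II genes and of 5 lists of marker genes in each library, with the mean and SD of 3 mice per group; error bars are not drawn below 0. The class II, border macrophage and fibroblast sums are highest in 15Q replicate 3 and lower in the other groups, the B and plasma cell sum is high in that library alone (67.9 CPM), and the intestinal sum separates all 15Q libraries from the rest.

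The rest of the antigen presentation pathway was described with 76 further genes in 7 lists, of which 65 were tested. None of the 65 was called in any comparison with edgeR, and at an unadjusted p under 0.05 stood 9 in 84Q against 15Q, 12 in 84Q+IGF-1 against 15Q and 5 in 84Q+IGF-1 against 84Q, where 19.4%, 17.7% and 4.68% of all tested genes did. The DESeq2 Wald test called H2-T24 in 84Q and the interferon-induced GTPase gene Iigp1 in 84Q+IGF-1, both against 15Q. Over the 65 tested genes, the median log2 fold changes were 0.04 in 84Q against 15Q, −0.05 in 84Q+IGF-1 against 15Q and −0.10 in 84Q+IGF-1 against 84Q. Among the 12 genes that make and load class I peptides, the chaperones Calr, Canx and Pdia3 had the highest TPM (416, 302 and 195). The list summed to 824 to 865 CPM in 15Q, 880 to 939 CPM in 84Q and 886 to 997 CPM in 84Q+IGF-1. Calr, calreticulin, which helps class I molecules to fold, stood at 264 ± 7.13 CPM (mean and SD of 3 mice) in the 15Q libraries, 309 ± 11.8 CPM in those of 84Q, and 329 ± 39.3 CPM in those of 84Q+IGF-1. In 84Q+IGF-1 against 15Q it differed by 0.32 on the log2 scale (standard error 0.08, adjusted p = 0.0666 with edgeR), past the adjusted p but short of the fold threshold. Nlrc5, the coactivator of class I genes, stood between 2.53 and 4.70 CPM, and the groups overlapped.

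Of 18 other class I and class I-like heavy chains found in the table, 14 were tested. H2-T22, Fcgrt and H2-T24 had the highest TPM (29.8, 28.7 and 15.8). H2-T24 had 8.77, 10.6 and 15.5 CPM in 15Q, 6.04, 6.73 and 5.76 CPM in 84Q, and 4.38, 9.37 and 10.04 CPM in 84Q+IGF-1, at −0.92 on the log2 scale in 84Q against 15Q (standard error 0.27, adjusted p = 0.108 with edgeR). The lowest log2 fold changes of these heavy chains against 15Q were those of H2-Q2, −1.36 in 84Q and −1.93 in 84Q+IGF-1 (adjusted p = 0.212 and 0.128 with edgeR). It had 104 counts in all libraries together, with 0.446, 0.521 and 0.735 CPM in 15Q, 0.379, 0.132 and 0.114 CPM in 84Q, and 0.0858, 0.0377 and 0.308 CPM in 84Q+IGF-1. Some of these values were at or below the floor of detection. Of 7 further class II and peptide exchange genes, 3 were tested, and H2-DMa, H2-DMb1 and H2-DMb2 had the highest TPM (5.09, 2.39 and 0.437). H2-DMa, a chain of the exchanger that replaces the Cd74 fragment by a peptide, had 4.65, 4.39 and 4.40 CPM in 15Q, 4.73, 4.97 and 5.70 CPM in 84Q, and 4.16, 3.50 and 3.19 CPM in 84Q+IGF-1. Every 84Q+IGF-1 library was thus below every other library, at −0.50 on the log2 scale against 84Q (standard error 0.15, unadjusted p = 0.00478, adjusted p = 0.969 from edgeR). The H2-Ea locus, listed as the pseudogene H2-Ea-ps, had 1 count in all 9 libraries together.

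The factors that bind class II promoters were above the class II chains in TPM. Of these 7, Nfyc, Rfxap and Rfx5 had the highest TPM (Nfyc 111, Rfxap 57.2), their sum stood between 302 and 316 CPM in all libraries, and their log2 fold changes lay between −0.21 and 0.25 in the 3 comparisons. Among 8 genes of endosomal processing and class II turnover, the proteases Ctsb, Ctsd and Lgmn had the highest TPM (336, 234 and 187), and the list summed to 915 to 965 CPM in 15Q, 982 to 1097 CPM in 84Q and 945 to 982 CPM in 84Q+IGF-1. Interferon-gamma, the main inducer of Ciita and class II genes, had 1 count in all 9 libraries together. Of the other 16 genes of its pathway, Jak1, Jak2 and Ifngr2 had the highest TPM (101, 47.4 and 36.5), and the summed level of the list overlapped between the groups (380 to 405, 385 to 410 and 370 to 410 CPM). Of 6 costimulatory genes, Icosl, Cd274 and Cd80 had the highest TPM (13.8, 2.44 and 1.20), and the list summed to 17.7 to 24.6 CPM.

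The tested genes outside the lists whose pattern over the 9 libraries was nearest to that of the class II sum were Bmp7, Slc13a4, Gpr182, Dpp4 and Kcnk5. Nearness was the root mean square difference of log2 CPM, each gene centred on its mean, and stood at 0.23 to 0.28 on the log2 scale for these genes, where the class II sum itself had an SD of 0.69. Bmp7 had means of 12.6, 7.20 and 6.03 CPM in 15Q, 84Q and 84Q+IGF-1, and Slc13a4 had 30.9, 16.8 and 11.7 CPM. Among the marker and pathway lists, Ogn, Lor, Cd163 and Dcn were nearest (0.25 to 0.28). The genes nearest to the class I sum of H2-K1, H2-D1 and B2m were Tmsb4x, Rpe, Rps12, Arc and Tpt1 (0.0434 to 0.0480), where the class I sum had an SD of 0.12, so that there was little pattern to match. These are descriptions over 9 libraries that share the differences in tissue and sex given above.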

How the data were processed

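The read counts per gene deposited by the authors were analysed for 9 cerebellum libraries, 3 in each of the groups 15Q, 84Q and 84Q+IGF-1. Per the labels and the study's methods, the authors trimmed reads (Trimmomatic 0.36), aligned them to GRCm38 (HISAT2 2.2.0) and counted them with featureCounts, without normalization; the annotation and strand setting are not given in the sources used here. The counts were tested in edgeR 4.0.16 under R 4.3.3, using TMM scaling, filterByExpr, a single quasi-likelihood fit to all 9 libraries and two-sided tests with Benjamini-Hochberg adjustment over 19353 genes; "called" means a fold change of at least 1.5 with an adjusted p under 0.1. Standard errors were derived from the F statistic. TPM used union exon lengths of GENCODE vM21, matched without the version suffix for 37681 of 37816 genes. log2 CPM used a prior count of 2. DESeq2 1.42.0, other filters, thresholds and scalings, a replicate block, an Xist covariate and leaving out libraries were alternatives. The steps were tested on simulated data. Sampling noise was exceeded between replicates of each group (chi-square per gene 9.64 to 16.2). The p-values set group differences against a spread between mice that is estimated with information shared across genes. Each mouse gave a single library, so differences between animals, in the tissue taken and in sex are not separated in that spread.

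The members and lists were chosen with earlier results of these data known. Named were all 10 genes, any called gene and the 3 highest by TPM of each pathway list, the 2 highest by CPM and any called gene of each marker list, and the 5 genes nearest to each class sum. Iigp1, Nlrc5, H2-Q2, and the genes given as low or as nearest within the lists, were named after their values were seen. Marker lists held microglia, border macrophages, dendritic, B and plasma, T and NK cells, endothelium, fibroblasts, choroid plexus, intestine, epidermis, muscle, blood, Purkinje and granule cells, astrocytes and oligodendrocytes. Values of some marker genes are not reported here.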

Additional observations from a re-analysis of the deposited data

How the results depend on the processing

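With all 9 libraries, 1 of the 10 genes was called in 84Q against 15Q, 3 in 84Q+IGF-1 against 15Q and 0 in 84Q+IGF-1 against 84Q. In 84Q against 15Q the count was 0 at an adjusted p under 0.05, with the replicate number as a block (H2-Ab1 −1.05 on the log2 scale, adjusted p = 0.140 with edgeR) and with Xist as a covariate (−1.07, adjusted p = 0.179), against −1.18 in the reported fit, 3 with no filter on low counts and 2 (H2-Ab1 and Cd74) with the DESeq2 Wald test. In 84Q+IGF-1 against 15Q it was 1 with the replicate block (Cd74, log2 fold change −1.48, adjusted p = 0.0855 with edgeR, with H2-Aa at −1.90 and 0.109 and H2-Ab1 at −1.21 and 0.101, close to −1.96 and −1.25 without it) and 4 with DESeq2 or no filter, H2-Eb1 being the fourth, and in 84Q+IGF-1 against 84Q it was 2 with no filter. With each library left out in turn the counts ranged from 0 to 1, from 0 to 3 and from 0 to 0 in the 3 comparisons. Alternatives added after seeing the data, leaving out the 3 choroid plexus libraries and Ttr as a covariate, gave 0 in both comparisons with 15Q. DESeq2 size factors, robust shrinkage, only the 2 groups compared and no fold threshold kept the counts within 1.5 times, no called value changed sign, and the cause of the changes was not tested. Over all genes, 414, 435 and 0 were called. The first 2 counts were 243 and 281 at an adjusted p under 0.05, 928 and 711 with no fold threshold, 242 and 271 with the replicate block, and 94 and 189 without the choroid plexus libraries (9 for the third). No filter gave 1025, 1284 and 168, Xist 274 in the first, Ttr 257 in the second and DESeq2 6 in the third, and libraries left out in turn gave 184 to 551, 226 to 629 and 0 to 9. Of the 9 pairs of libraries with the same number, 0 had a correlation of deviations over 0.1 (−0.309 to 0.0788), so the numbers were not taken as pairing the libraries. By CPM instead of TPM, H2-D1 stood above B2m, Tap1 above Cd74, and Ciita (3.26 CPM), lowest by TPM, above H2-Ab1, H2-Eb1 and H2-Aa (2.44, 1.79 and 1.61 CPM). The class II counts are low, the lowest being 13, and 3 mice a group limit the precision.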
